A study of Mus musculus with 6 samples.

Results

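Very low density lipoprotein (VLDL) carries triglyceride from the liver into the blood, and the 10 genes described here encode proteins that load lipid onto it or move it out of the endoplasmic reticulum (ER). They are *Mttp*, *P4hb* and *Tm6sf2*, which act in lipid loading, *Sar1b*, *Surf4*, *Mia2* and *Mia3*, which act in export from the ER, the carboxylesterases *Ces1d* and *Ces3a*, and the sorting receptor *Sort1*. The genes were chosen by name from the pathway, with the apolipoproteins left out and earlier results of these data known, and each was found once among the 56691 genes measured. The study had already reported lower *Mttp* in KPF than in WPF from its liver RNA-seq. It also reported less *Mttp* mRNA by qRT-PCR and less MTTP protein by Western blot in livers without hepatocyte ChREBP. RNA-seq was performed on poly(A) RNA of whole liver from 6 pregnant mice (dams) that had been fed a high-fructose diet (HFrD) after mating until they were killed in late gestation. KPF dams (n = 3, replicates 1, 2 and 3) lacked ChREBP in hepatocytes (h*Chrebp* KO, *Chrebp* flox/flox with Alb-Cre, which is driven by the albumin promoter and removes exon 2 of *Mlxipl*). WPF dams (n = 3, replicates 2, 3 and 4) were the controls, named WT in the sample labels and *Chrebp* flox/flox without Cre in the study's methods, so that both groups had pregnancy, HFrD and, by the methods, floxed alleles in common. The floxed line was made in C57BL/6J, the sires were *Chrebp* flox/flox, and the age of the dams is not given in the sources used here.

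In the hepatocyte, a nascent apoB chain receives its first lipid in the ER lumen from microsomal triglyceride transfer protein, a heterodimer of the large subunit encoded by *Mttp* and protein disulfide isomerase encoded by *P4hb*. The particle leaves the ER in carriers built by the COPII coat, for which the GTPase SAR1B, the cargo receptor SURF4 and the TANGO1 family proteins of *Mia3* and *Mia2* are needed, and it takes up more triglyceride that esterases of the ER release from stored fat. ChREBP, encoded by *Mlxipl*, is a transcription factor that responds to carbohydrate and drives glycolytic and lipogenic genes in the liver. The comparison asks whether transcripts of the secretory arm differ when it is removed from hepatocytes under HFrD.

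The libraries held 10694496 to 11567941 counted reads in KPF and 12988865 to 14496630 in WPF, so each KPF library was smaller than each WPF library. The targeted gene, *Mlxipl*, was at 182, 709 and 860 CPM (read counts per library brought to one size by TMM) in KPF and 974, 1277 and 891 CPM in WPF. These counts cover the whole gene, whereas the deletion takes 1 exon, and KPF replicate 3 lay close to WPF replicate 4. Hepatocyte markers were abundant in every library, with a summed level of 81222 to 107669 CPM in KPF and 105008 to 174130 CPM in WPF. Most of this sum was *Alb*, at 65832 to 91390 CPM in KPF and 90628 to 150690 CPM in WPF. Of the 8 markers, 3 had a log2 fold change above 0 and 5 below 0, and 0 were called. Stellate and fibroblast markers summed to 170 to 376 CPM in KPF and 98.5 to 127 CPM in WPF, and 4 of the 8 were higher in KPF at an unadjusted p under 0.05 in edgeR's quasi-likelihood test. By this rule 6.29% of all 10866 genes tested were higher and 4.54% lower. Among those called, *Col1a1*, *Col1a2* and *Reln* had a WPF mean FPKM of 0.74, 0.96 and 0.98. These lie below the filter of a mean of 1, which the genes passed through their KPF values, so their calls are only descriptions. KPF replicate 2 also held muscle transcripts, and the adipose, muscle and mesothelium list summed to 1396 CPM there against 3.50 to 13.3 CPM in the other libraries. Of its 8 genes, 3 were at 0 in some library, and the 4 that passed the filter were all called higher in KPF. Among them *Acta1*, *Ckm* and *Myh4* stood at 780, 524 and 77.5 CPM in KPF replicate 2. In KPF replicates 1 and 3 they were at most 0.584, 0.193 and 0 CPM, below each WPF library. Their calls thus rest on KPF replicate 2 alone and are not a difference between the groups. *Ckm*, *Myh4* and *Msln*, the other gene called, had a WPF mean FPKM of 0.28, 0.023 and 0.4, so they passed the filter only through KPF. The summed endothelial, Kupffer cell and cholangiocyte markers overlapped between the groups, with 1 of 8, 0 of 8 and 0 of 2 tested genes called. The part of these transcripts in the values of the VLDL genes was not tested, and in whole liver fewer hepatocytes and less RNA per hepatocyte cannot be told apart.

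Of the 10 genes, 2 were lower in KPF (*Mttp* and *Sar1b*) and 1 was higher (*Ces3a*) at an unadjusted p under 0.05 in edgeR's quasi-likelihood test, and 7 did not pass. Over all 10866 genes tested, 4.54% were called lower and 6.29% higher by this rule, or 10.8% in either direction. The 683 higher and 493 lower genes of this rule became 376 and 750 when counts were scaled by library totals. Without KPF replicate 1, KPF replicate 2, WPF replicate 2 or WPF replicate 3, 0 of the 10 genes were lower at an unadjusted p under 0.05 in edgeR, with *Mttp* and *Sar1b* then at 0.0607 to 0.133. In these fits 249 to 504 of the 10866 genes tested were lower by the same rule. After Benjamini-Hochberg adjustment in edgeR, 0 of the 10 genes passed 0.05, as did 0% of all genes, where 1176 genes had an unadjusted p under 0.05. DESeq2 gave 156 genes with an adjusted p under 0.05, 1 of them *Ces3a*, and limma on log2(FPKM + 1) gave 0. All 10 genes passed the filter of a mean FPKM of at least 1, and their median log2 fold change (KPF minus WPF) was -0.17, against 0.02 for all genes tested, with 6 below 0 and 4 above 0. By CPM, the KPF and WPF ranges did not overlap for *Sar1b* and *Mia2*, both lower in KPF, and for *Ces3a*, higher in KPF. Over all genes tested this held for 15.7%, with 8.15% lower and 7.55% higher. When counts were scaled by library totals in place of TMM, the median of all genes tested moved to -0.12 and that of the 10 genes to -0.30, and *Mttp*, *Sar1b* and *Ces3a* were the genes called among the 10 as before.

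**Figure D1:**
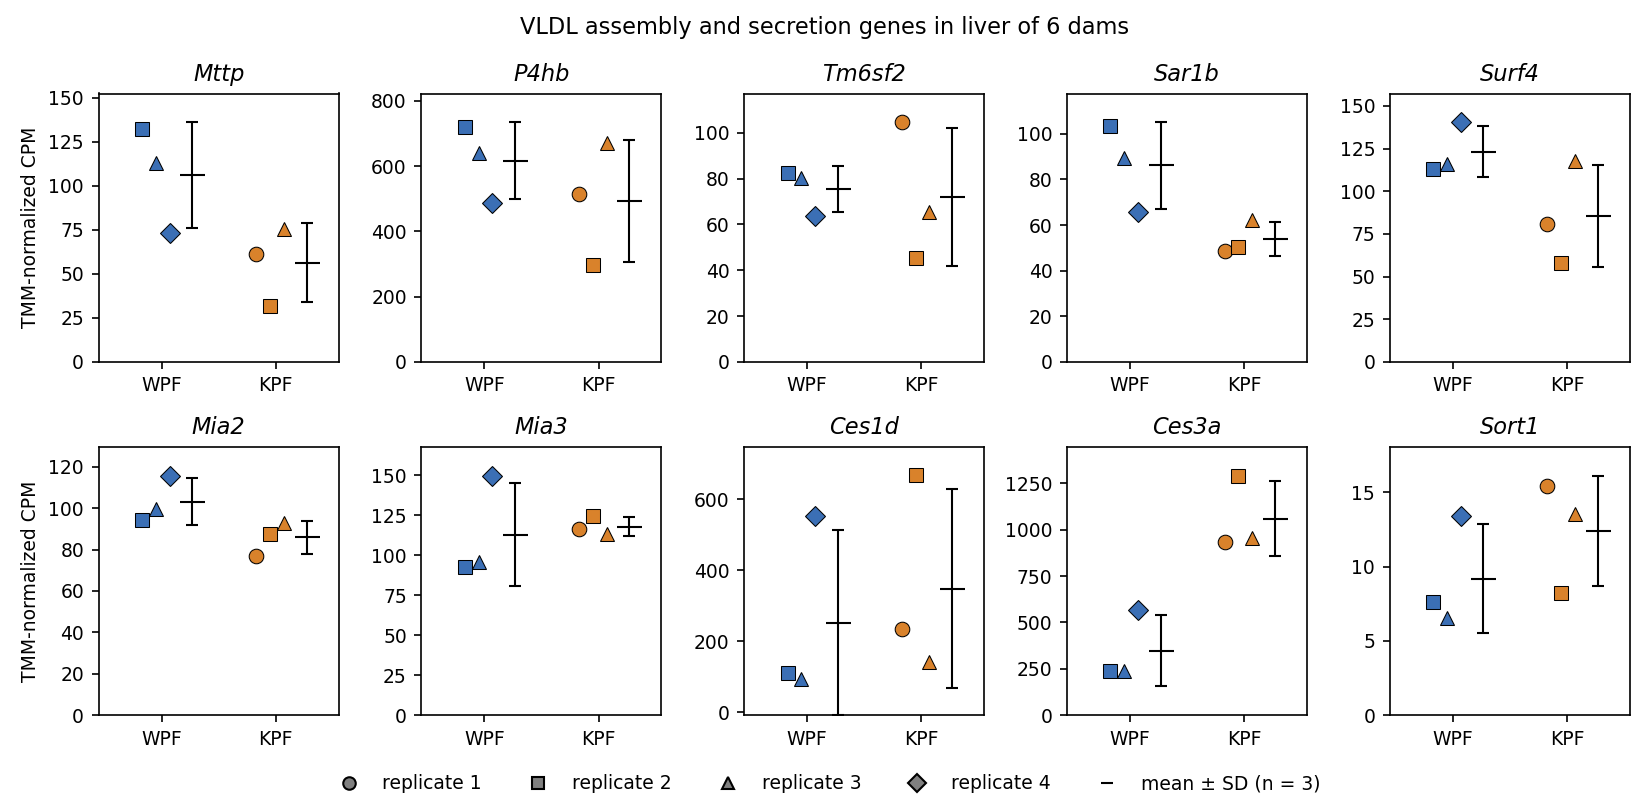
TMM-normalized CPM of the 10 VLDL genes in each liver library, with WPF in blue and KPF in orange, 1 marker shape for each replicate number, and mean ± SD (n = 3 dams) beside the points. The 3 KPF points lie below the 3 WPF points for *Sar1b* and *Mia2* and above them for *Ces3a*, while *Mttp* overlaps at 75.6 CPM in KPF replicate 3 and 73.1 CPM in WPF replicate 4.

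*Mttp* (ENSMUSG00000028158, chromosome 3 from 137795615 to 137850729, minus strand, in GRCm39 as are all gene coordinates here) encodes the lipid-binding subunit that transfers triglyceride to apoB. It stood at 61.4, 31.7 and 75.6 CPM in KPF (replicates 1, 2 and 3, here and below) and 132, 113 and 73.1 CPM in WPF (replicates 2, 3 and 4). The groups overlapped through KPF replicate 3 and WPF replicate 4, and the lowest level was in KPF replicate 2, the library with muscle transcripts. The fitted level was 1.88-fold lower in KPF (log2 fold change -0.91, standard error 0.37, unadjusted p = 0.0419, adjusted p = 0.453, edgeR's quasi-likelihood test). On the FPKM scale, which uses library totals, the KPF values were 9.58, 5.02 and 10.8 and the WPF values 18.7, 19.5 and 13.7, with no overlap. FPKM ranges were lower in KPF without overlap for 12.2% of all genes tested. The unadjusted p was 0.0679, 0.0850, 0.133 and 0.0956 without KPF replicate 1, KPF replicate 2, WPF replicate 2 and WPF replicate 3 in turn, and the log2 fold change stayed between -1.19 and -0.64.

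The start region of *Mttp* is shown because this gene and *Sar1b* are the members that were called lower. RefSeq gives a promoter window for *Mttp* on chr3:138143419-138143668 (GRCm38.p6, minus strand). Its start lies 12041 bases upstream of the first base of the principal transcript, *Mttp*-201, and 30 bases upstream of that of *Mttp*-202, so it is the distal of the annotated coding starts. The counts per gene do not separate these starts. The 250 bases before the start read as follows, with capitals marking the reverse complement of TGACGT, the core of a cyclic AMP response element.
Mttp: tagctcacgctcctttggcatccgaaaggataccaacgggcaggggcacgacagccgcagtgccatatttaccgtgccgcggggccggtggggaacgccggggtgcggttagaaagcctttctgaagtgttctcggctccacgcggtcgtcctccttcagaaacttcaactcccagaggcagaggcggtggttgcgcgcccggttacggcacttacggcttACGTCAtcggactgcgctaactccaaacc
This match begins 29 bases before the start. TGACGT was found on either strand in 7.51% of the 32851 RefSeq windows (250 bases before to 50 after a start), and among the VLDL genes in those of *Mttp* and *Mia3*. The match is a description of the letters and not a binding site.

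*P4hb* (ENSMUSG00000025130, chromosome 11 from 120451124 to 120464079, minus strand) encodes protein disulfide isomerase, which keeps the large subunit soluble and also works alone in folding proteins of the ER. It was at 515, 297 and 670 CPM in KPF and 720, 642 and 487 CPM in WPF. KPF replicate 3 was above 2 of the WPF libraries, and KPF replicate 2 was again the lowest library. Its log2 fold change of -0.32 (standard error 0.35) did not pass (unadjusted p = 0.391, adjusted p = 0.757, edgeR's quasi-likelihood test). It was -0.065 without KPF replicate 2, -0.19 without WPF replicate 2 and -0.60 without KPF replicate 3.

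*Mttp* was also compared with its partner within each library, where a ratio does not depend on the scaling between libraries. The FPKM of *Mttp* divided by that of *P4hb* was 0.0550, 0.0493 and 0.0520 in KPF replicates 1, 2 and 3 and 0.0845, 0.0811 and 0.0691 in WPF replicates 2, 3 and 4. Each KPF library was thus below each WPF library, including KPF replicate 2, which was low in both genes. The mean log2 ratio was -4.26 ± 0.08 in KPF and -3.68 ± 0.15 in WPF (SD, n = 3 dams each), a difference of -0.58, or 1.5-fold. The exact two-sided permutation test gave p = 0.1, the smallest that 3 dams against 3 allow, and 0.2 after Benjamini-Hochberg adjustment over the 4 ratios computed. Over the 6 sets that leave out 1 library the difference stayed between -0.67 and -0.52.

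*Tm6sf2* (ENSMUSG00000036151, chromosome 8 from 70525574 to 70532716, plus strand) encodes a membrane protein of the ER and Golgi that is needed for full lipidation of VLDL. Its levels were 105, 45.4 and 65.4 CPM in KPF and 82.3, 80.3 and 63.7 CPM in WPF. The KPF libraries held both the highest and the lowest value, and all WPF values lay between them. The log2 fold change was -0.07 (standard error 0.33, unadjusted p = 0.832, edgeR's quasi-likelihood test), and it turned to 0.17 without KPF replicate 2.

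**Figure D2:**
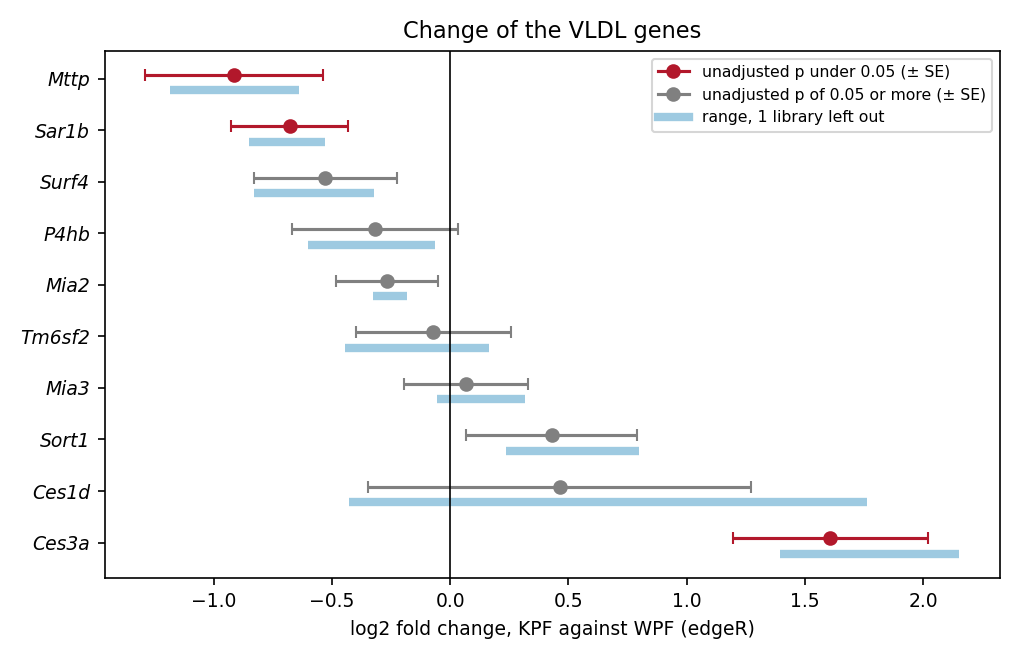
Log2 fold change of each VLDL gene, KPF against WPF, from edgeR's quasi-likelihood test. Points show the estimate with its standard error, red for an unadjusted p under 0.05 and grey otherwise, and pale bars the range over 6 fits that each leave out 1 library. The bars of *Mttp* and *Sar1b* stay below 0 and that of *Ces3a* above 1.39, whereas those of *Ces1d*, *Tm6sf2* and *Mia3* cross 0.

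Among the ER export genes, *Sar1b* (ENSMUSG00000020386, chromosome 11 from 51654514 to 51682752, plus strand) encodes the GTPase that starts COPII coat assembly and whose loss in people causes chylomicron retention disease. It was at 48.6, 50.6 and 62.3 CPM in KPF and 103, 89.4 and 65.8 CPM in WPF. No KPF library reached a WPF library, although KPF replicate 3 and WPF replicate 4 lay close together, and the muscle-containing KPF replicate 2 was like KPF replicate 1. The mean was 53.8 ± 7.4 CPM in KPF and 86.1 ± 19.0 CPM in WPF (SD, n = 3), which is 1.6-fold lower in KPF (log2 fold change -0.68, standard error 0.25, unadjusted p = 0.0265, adjusted p = 0.430, edgeR's quasi-likelihood test). The exact two-sided permutation test gave p = 0.1. The unadjusted p of edgeR lay between 0.0607 and 0.102 without KPF replicate 1, KPF replicate 2, WPF replicate 2 or WPF replicate 3, with log2 fold changes from -0.65 to -0.53.

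The RefSeq window of *Sar1b* on chr11:51763413-51763662 (GRCm38.p6, plus strand) belongs to a start 24 bases upstream of the first base of the principal transcript, *Sar1b*-201. Capitals mark the reverse complement of CCAAT, the box read by the factor NF-Y, in the 250 bases before the start.
Sar1b: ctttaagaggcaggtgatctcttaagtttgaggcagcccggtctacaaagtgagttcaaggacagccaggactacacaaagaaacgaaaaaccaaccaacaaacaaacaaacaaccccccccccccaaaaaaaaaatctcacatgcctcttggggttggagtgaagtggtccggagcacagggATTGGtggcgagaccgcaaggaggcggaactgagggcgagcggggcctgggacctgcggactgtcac
The match begins 67 bases before the start. CCAAT was found on either strand in 37.4% of all windows and in 5 of the 8 windows of the VLDL genes, those of *Sar1b*, *P4hb*, *Mia3* and *Mia2*, which has 3 windows. GGGCGG, the GC box, was found in 35.7% of all windows and in 4 of the 8, those of *Mttp*, *P4hb*, *Mia3* and *Surf4*. CACGTG, the E box, was found in 7.15% of all windows and in 0 of the 8. Only these exact letters were searched, and the region at the principal start of *Mttp* (*Mttp*-201) is in none of the windows. The 0 therefore says nothing about that region or about variant E boxes. The windows of *Mttp* and *Sar1b* had none of these 4 motifs in common, and windows of *Tm6sf2*, *Ces1d*, *Ces3a* and *Sort1* were not analysed here.

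*Sar1b* was set against *Sar1a*, which encodes the closely related GTPase of the same coat. *Sar1a* was at 72.2, 61.5 and 59.9 CPM in KPF and 52.0, 51.5 and 59.3 CPM in WPF (log2 fold change 0.25, standard error 0.20, unadjusted p = 0.247, edgeR's quasi-likelihood test). The FPKM of *Sar1b* divided by that of *Sar1a* was 2.0, 2.45 and 3.10 in KPF and 5.91, 5.17 and 3.30 in WPF. Thus *Sar1b* was the more abundant of the pair per length in each library, and each KPF library had the smaller ratio. The difference in mean log2 ratio was -0.91, or 1.88-fold (exact two-sided permutation test, p = 0.1, adjusted over the 4 ratios p = 0.2), and it ran from -1.16 to -0.74 with 1 library left out. The closest libraries were again KPF replicate 3 and WPF replicate 4.

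*Surf4* (ENSMUSG00000014867, chromosome 2 from 26810052 to 26823940, minus strand) encodes the receptor that links lipoproteins in the ER lumen to the coat. It was at 80.7, 58.0 and 118 CPM in KPF and 113, 116 and 140 CPM in WPF. KPF replicates 1 and 2 were below all WPF libraries, and KPF replicate 3 lay among them. The log2 fold change of -0.53 (standard error 0.30) did not pass in edgeR's quasi-likelihood test (unadjusted p = 0.119, adjusted p = 0.552). It was -0.83 without KPF replicate 3 (unadjusted p = 0.0223), -0.32 without KPF replicate 2 (unadjusted p = 0.281) and -0.22 without both KPF replicate 2 and WPF replicate 4.

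*Mia3* (ENSMUSG00000056050, chromosome 1 from 183107682 to 183150894, minus strand) encodes TANGO1, which shapes ER exit sites for bulky cargo, and *Mia2* (ENSMUSG00000021000, chromosome 12 from 59142585 to 59238369, plus strand) encodes its relatives TALI and cTAGE5, whose transcripts are counted together here. *Mia2* was at 77.0, 87.7 and 92.9 CPM in KPF and 94.2, 99.6 and 116 CPM in WPF. The groups did not overlap by CPM, but the highest KPF and the lowest WPF library were nearly level, and by FPKM they overlapped. The log2 fold change was -0.27 (standard error 0.22, unadjusted p = 0.254, edgeR's quasi-likelihood test; exact two-sided permutation test, p = 0.1). *Mia3* was at 116, 124 and 113 CPM in KPF and 92.8, 95.5 and 150 CPM in WPF. Its KPF libraries were tightly grouped and lay between the WPF values (log2 fold change 0.07, standard error 0.26, unadjusted p = 0.809, edgeR's quasi-likelihood test), and the sign of this change depended on the scaling, with -0.09 for library totals. The FPKM of *Mia2* divided by that of *Mia3* was 0.422, 0.449 and 0.524 in KPF and 0.647, 0.665 and 0.492 in WPF. WPF replicate 4 fell within the KPF range, and the difference of -0.37 in mean log2 ratio gave p = 0.2 (exact two-sided permutation test, adjusted over the 4 ratios p = 0.267).

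**Figure D3:**
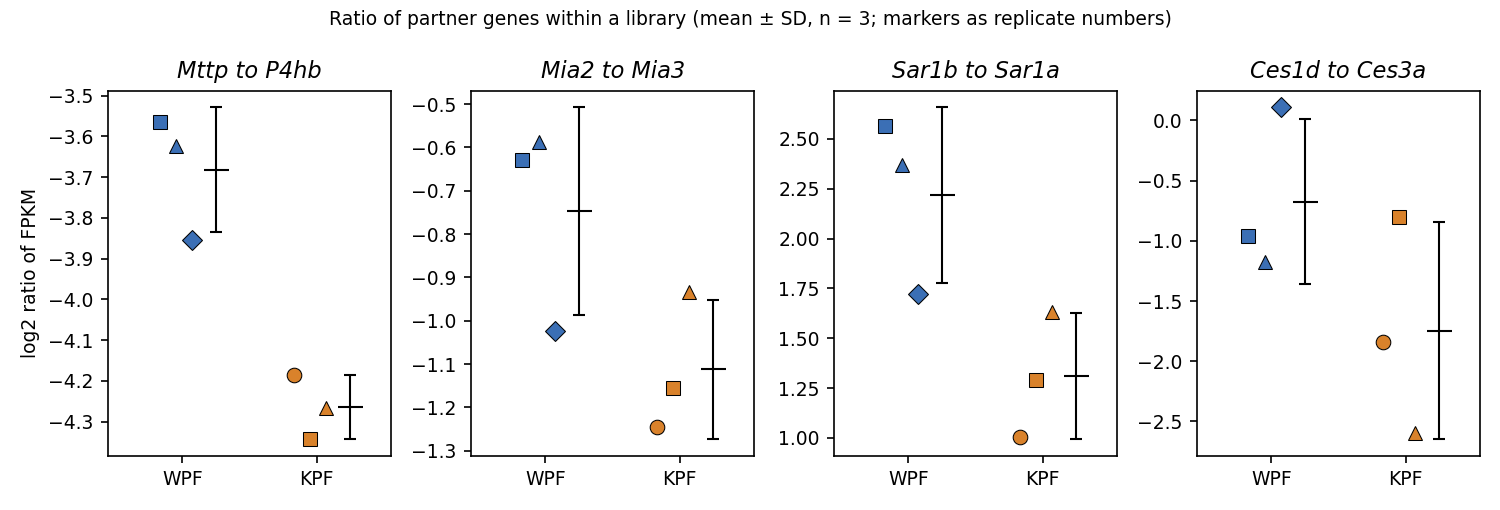
Log2 ratio of FPKM between partner genes within each library, WPF in blue and KPF in orange, with mean ± SD (n = 3 dams) and replicate markers as circle (1), square (2), triangle (3) and diamond (4). The groups separate for *Mttp* to *P4hb* (means -4.26 in KPF and -3.68 in WPF) and for *Sar1b* to *Sar1a*, and overlap for *Mia2* to *Mia3* and *Ces1d* to *Ces3a*.

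*Ces3a* (ENSMUSG00000069922, chromosome 8 from 105775233 to 105785045, plus strand), which encodes a carboxylesterase of the ER lumen, had the largest log2 fold change of the 10 genes. It was at 931, 1292 and 953 CPM in KPF and 238, 236 and 568 CPM in WPF. Each KPF library exceeded each WPF library, and WPF replicate 4 stood above the other WPF libraries. The mean was 1059 ± 202 CPM in KPF and 347 ± 191 CPM in WPF (SD, n = 3), or 3.05-fold higher in KPF (log2 fold change 1.61, standard error 0.41, unadjusted p = 0.0051, adjusted p = 0.430, edgeR's quasi-likelihood test). The exact two-sided permutation test gave p = 0.1, and DESeq2 gave an adjusted p of 0.0105. By FPKM the KPF libraries were also higher without overlap, which held for 3.29% of all genes tested. The log2 fold change was between 1.39 and 2.23 in the 15 alternative fits, each with an unadjusted p under 0.05, while the adjusted p ranged from 0.0105 to 0.823.

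*Ces1d* (ENSMUSG00000056973, chromosome 8 from 93892696 to 93924466, minus strand) encodes the triacylglycerol hydrolase that frees stored fat for VLDL. It varied more within the groups than between them, at 234, 669 and 142 CPM in KPF and 110, 94.5 and 553 CPM in WPF. KPF replicate 2 and WPF replicate 4 were high, and the other 4 libraries lay between 94.5 and 234 CPM. The log2 fold change was 0.46 (standard error 0.81, unadjusted p = 0.585, edgeR's quasi-likelihood test). It was -0.43 without KPF replicate 2 and 1.76 without WPF replicate 4 (unadjusted p = 0.0358), so 1 library decided its direction. With both of these libraries left out, a choice made after the values were seen, it was 0.87 (unadjusted p = 0.0348, edgeR). The FPKM of *Ces1d* divided by that of *Ces3a* was 0.279, 0.574 and 0.166 in KPF and 0.514, 0.444 and 1.08 in WPF, with overlap (difference in mean log2 ratio -1.07, exact two-sided permutation test, p = 0.3). Carboxylesterase genes are close in sequence, and whether reads were shared among them by the counting could not be checked.

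*Sort1* (ENSMUSG00000068747, chromosome 3 from 108191398 to 108268827, plus strand) encodes sortilin, a receptor of the Golgi that binds apoB and sorts it. It was the least abundant of the 10 genes, with 87 to 226 reads per library, at 15.4, 8.25 and 13.5 CPM in KPF and 7.62, 6.55 and 13.4 CPM in WPF. WPF replicate 4 lay with KPF replicates 1 and 3, and KPF replicate 2 with the other WPF libraries. The log2 fold change of 0.43 (standard error 0.36) did not pass in edgeR's quasi-likelihood test (unadjusted p = 0.271). It was 0.23 without WPF replicate 3, 0.24 without KPF replicate 1, 0.65 without KPF replicate 2 and 0.80 without WPF replicate 4, with unadjusted p from 0.0545 to 0.574. Without both KPF replicate 2 and WPF replicate 4, a choice made after the values were seen, it was 1.02 (unadjusted p = 0.00970, adjusted p = 0.237, edgeR).

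Within WPF, replicate 4 held the highest CPM for 6 of the 10 genes and the lowest for the other 4. KPF replicate 2 was the lowest of its group for 5 and the highest for 3. Without both libraries, 2 of the 10 genes were lower (*Mttp* and *Sar1b*) and 3 higher (*Ces3a*, *Ces1d* and *Sort1*) at an unadjusted p under 0.05 in edgeR, where 6.08% of all genes tested were lower and 6.41% higher. The pair was chosen after these values were seen, here and wherever both are left out. Counts and p values without it are thus descriptions and not tests.

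By FPKM, which allows levels of different genes to be compared, the order in WPF was *P4hb* (220 ± 21.1), *Ces3a* (142 ± 94.8), *Ces1d* (118 ± 133), *Sar1b* (69.8 ± 8.0), *Tm6sf2* (40.7 ± 3.9), *Surf4* (39.3 ± 9.8), *Mttp* (17.3 ± 3.1), *Mia3* (16.7 ± 6.8), *Mia2* (9.61 ± 2.30) and *Sort1* (1.29 ± 0.67; SD, n = 3). The ranges of neighbours overlapped from *P4hb* through *Sar1b*, between *Tm6sf2* and *Surf4*, and from *Mttp* through *Mia2*. In KPF, *Ces3a* came first at 383 ± 87.2 FPKM, above *P4hb* (161 ± 54.2) without overlap of their ranges. *Ces1d* (142 ± 119), *Sar1b* (40.4 ± 3.4), *Tm6sf2* (35.7 ± 15.6), *Surf4* (24.3 ± 7.2), *Mia3* (15.6 ± 1.5), *Mttp* (8.47 ± 3.05), *Mia2* (7.21 ± 0.52) and *Sort1* (1.55 ± 0.46) followed. *Mttp* was above the range of *Mia2* in each WPF library, whereas its KPF range overlapped that of *Mia2*. *P4hb* exceeded its partner *Mttp* in FPKM in each of the 6 libraries.

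Of 14 other factors of lipid loading in the ER, 1 was lower and 1 higher in KPF at an unadjusted p under 0.05 in edgeR, and their median log2 fold change was -0.07. Over all genes tested, 4.54% were lower and 6.29% higher by this rule, and these shares also stand beside the edgeR counts of the lists below. *Lpcat3*, which puts polyunsaturated chains into the phospholipids of the lipoprotein membrane, was at 38.4, 52.1 and 44.2 CPM in KPF and 102, 82.7 and 70.0 CPM in WPF. Its groups did not overlap, and its log2 fold change of -0.92 (standard error 0.24) passed in edgeR before adjustment (unadjusted p = 0.00531, adjusted p = 0.430), and the adjusted p of DESeq2 was 0.0478. It kept an unadjusted p under 0.05 in all 15 alternative fits. *Fitm1*, which acts in lipid droplet formation and is a gene of muscle, was at 5.41, 20.1 and 6.13 CPM in KPF and 1.75, 2.14 and 6.47 CPM in WPF. The highest value was in KPF replicate 2, the library with muscle transcripts, and the groups overlapped (log2 fold change 1.6, unadjusted p = 0.0488, edgeR). Without KPF replicate 2 the log2 fold change was 0.72 (unadjusted p = 0.252, edgeR), without both KPF replicate 2 and WPF replicate 4 it was 1.55 (unadjusted p = 0.0068), and with library totals it did not pass. *Dgat2*, *Dgat1* and the ER scramblase genes *Tmem41b* and *Vmp1* were among the 12 that did not pass in edgeR. *Tmem41b* was at 14.4 to 19.6 CPM in KPF and 21.9 to 23.6 CPM in WPF, without overlap (unadjusted p = 0.0577, edgeR). It was called lower with library totals and by limma on log2(FPKM + 1). *Dgat2* was called lower without both KPF replicate 2 and WPF replicate 4.

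Of 24 listed genes of the COPII coat and of fusion with the Golgi, 23 were matched (*Vamp7* was not), 21 passed the filter, and 2 were lower and 0 higher in KPF at an unadjusted p under 0.05 in edgeR, with the same counts in DESeq2. Their median log2 fold change was -0.14. *Sec31b*, the minor form of a subunit of the outer coat, was at 2.70, 7.53 and 6.52 CPM in KPF and 14.2, 17.9 and 11.9 CPM in WPF (log2 fold change -1.39, standard error 0.39, unadjusted p = 0.00814, adjusted p = 0.430, edgeR). Its groups did not overlap at these low levels, and *Sec31a*, the main form, was at 132 to 158 CPM in KPF and 104 to 158 CPM in WPF (log2 fold change 0.13, unadjusted p = 0.598, edgeR). *Svip*, a small protein of the ER membrane that has been tied to VLDL carriers, had a log2 fold change of -0.73 (unadjusted p = 0.0381, edgeR) on 5.41 to 7.69 CPM in KPF and 8.26 to 13.9 CPM in WPF, and without KPF replicate 2 and WPF replicate 4 its unadjusted p was 0.0849. The other 19 tested genes, which include the remaining coat subunits, did not pass in edgeR. With library totals, *Tfg* and *Bet1* were also below the threshold and 4 genes were lower.

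Of 13 other carboxylesterase genes, 10 passed the filter and 1 was higher in KPF and 0 lower at an unadjusted p under 0.05 in edgeR, with a median log2 fold change of 0.03. It was *Ces1e*, at 165, 147 and 147 CPM in KPF and 110, 109 and 107 CPM in WPF (log2 fold change 0.49, standard error 0.21, unadjusted p = 0.0465, edgeR), and its p was above 0.05 with any 1 library left out (0.0612 to 0.12). With library totals 0 were higher and 1 was lower, *Ces2g*. DESeq2 called 3 higher, adding *Ces1b* and *Ces3b*, the neighbour of *Ces3a*. These were at 569 and 557 CPM in KPF replicate 2 and at 69.4 to 159 CPM in the other 5 libraries. In KPF replicates 1 and 3, where *Ces3a* exceeded its WPF range, *Ces3b* was at 94.8 and 99.4 CPM against 69.4 to 105 CPM in WPF. *Ces2f* had no reads in the 6 libraries.

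Of 10 genes of the protein disulfide isomerase family and of partners of *P4hb*, 9 passed the filter, 1 was higher and 0 were lower in KPF in edgeR, and the median log2 fold change was 0.38. This was *Pdia5* at 60.0, 83.3 and 50.9 CPM in KPF and 32.5, 42.0 and 47.0 CPM in WPF (log2 fold change 0.68, standard error 0.26, unadjusted p = 0.0337, edgeR). With library totals, 0 of the 9 passed in either direction. The ER stress gene *Pdia4* reached 292 CPM in KPF replicate 1 against 48.1 to 116 CPM elsewhere and did not pass in edgeR (unadjusted p = 0.0791). DESeq2 called 2 of the 9 higher, *Pdia5* and *Pdia4*, and 0 lower. The list of 11 regulators of *Mttp* transcription includes the targeted gene, *Mlxipl*, which was itself not called (log2 fold change -0.84, unadjusted p = 0.152, edgeR). Of the 11, 10 passed the filter and 0 were called in edgeR in either direction. Without both KPF replicate 2 and WPF replicate 4, edgeR called 1 higher and 2 lower among *Ppara*, *Ppargc1b* and *Srebf1*. On all libraries, DESeq2 and limma on log2(FPKM + 1) each called 1 lower and 0 higher, and edgeR with library totals called 0. The gene called was *Srebf1*. Its levels were 21.7, 117 and 83.6 CPM in KPF and 176, 145 and 134 CPM in WPF, without overlap (log2 fold change -1.03, standard error 0.54, unadjusted p = 0.0929, edgeR). *Foxo1*, which activates *Mttp* when insulin is low, was at 17.0 to 18.3 CPM in KPF and 17.4 to 18.4 CPM in WPF, and *Hnf4a* was at 409 to 596 CPM and 409 to 417 CPM. With the filter of a mean FPKM of at least 1, 0 genes of these 5 lists had an adjusted p under 0.05 in edgeR, and with no filter *Sec31b* had an adjusted p of 0.0489. The genes at an unadjusted p under 0.05 in edgeR with TMM and the filter are those named for each list. Over all 10866 genes tested, DESeq2 put 698 higher and 521 lower at an unadjusted p under 0.05. With library totals in edgeR, 376 were higher and 750 lower, and limma on log2(FPKM + 1) put 275 higher and 731 lower.

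**Figure D4:**
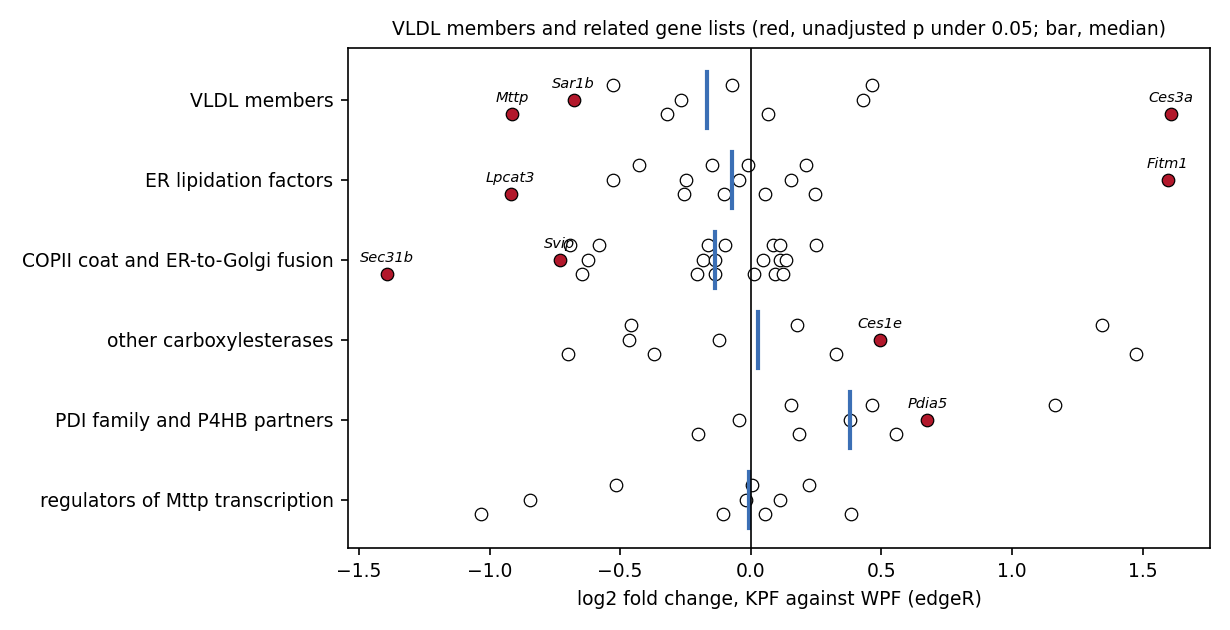
Log2 fold change (KPF against WPF, edgeR) of the 10 VLDL genes and of the tested genes of 5 related lists, 1 point per gene, filled red and named where the unadjusted p was under 0.05, with a blue bar at the median of each list. The medians lie between -0.17 for the VLDL genes and 0.38 for the protein disulfide isomerase family, and the named genes are 1 to 3 in each list except the regulators of *Mttp*.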

How the data were processed

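Poly(A) RNA of whole liver was sequenced from 6 dams. For every gene the table deposited by the authors holds a raw count and its FPKM, which is the count over exonic length and over the library total. The submitters' processing notes name cutadapt 1.9.1, HISAT2 2.2.1, HTSeq 0.6.1, DESeq2 and GRCm39; the strand setting of the counting is not given in the sources used here. Symbols came from GENCODE M21 (52073 of 56691 gene IDs) and promoter windows from RefSeq GRCm38.p6 (6 of the 10 genes), with no coordinates combined across builds. Genes were kept at a mean FPKM of 1 or more (10866 genes). Their counts were scaled by TMM and tested in edgeR 4.0.16 (R 4.3.3) by quasi-likelihood, with Benjamini-Hochberg adjustment over all of them, after a trial of the test on simulated counts. Ratios of FPKM were compared by exact permutation tests.

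The members and lists were chosen with earlier results of these data known. From the related lists, genes with an unadjusted p under 0.05 were named, at most 5 a list, and others named from them were picked after their values were seen. The alternatives were DESeq2 1.42.0, its size factors, library totals, other filters, limma 3.58.1 on log2(FPKM + 1) and log2(FPKM + 0.1), leaving out each library, and the replicate number as a block. Leaving out KPF replicate 2 and WPF replicate 4 together was chosen after seeing the data. Libraries of a group differed beyond sampling noise (chi-square per gene of 35.5 to 104). Each library was taken as 1 dam because the study calls its replicates biological, although the labels name no animals.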

Additional observations from a re-analysis of the deposited data

How the results depend on the processing

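The log2 fold changes of *Mttp*, *Sar1b* and *Ces3a* kept their direction in all 15 alternatives, and their unadjusted p was under 0.05 in 11, 11 and 15 of them. Some signs turned. With 1 library left out, *Ces1d* ran from -0.43 (KPF replicate 2) to 1.76 (WPF replicate 4), *Tm6sf2* from -0.45 (KPF replicate 1) to 0.17 (KPF replicate 2), and *Mia3* from -0.056 (WPF replicate 2) to 0.32 (WPF replicate 4), with -0.041 without WPF replicate 3. *Tm6sf2* was 0.054 without both KPF replicate 2 and WPF replicate 4. *Mia3* was -0.094 on library totals, -0.026 by limma on log2(FPKM + 1) and -0.024 on log2(FPKM + 0.1). Genes with an adjusted p under 0.05 numbered 286 with no filter on FPKM, 156 with DESeq2, 44 without both KPF replicate 2 and WPF replicate 4, and 0 to 5 with 1 library left out. At an unadjusted p they numbered 2520 with no filter, 525 with a minimum mean FPKM of 5 and 574 to 1718 with 1 library left out. Of the 10 VLDL genes, 1 passed the adjusted threshold in DESeq2. The number higher in KPF was 1 to 2 with 1 library left out and 3 without both libraries, and the number lower was 0 to 3, with 0 when KPF replicate 1, KPF replicate 2, WPF replicate 2 or WPF replicate 3 was left out. Over all 10866 genes tested, 325 to 964 were higher and 249 to 754 lower at an unadjusted p under 0.05 with 1 library left out. TMM put 58.1% of the called genes higher in KPF, library totals 33.4% and limma on log2(FPKM + 1) 27.3%. The cause of these differences was not tested. *Sort1* fell below the filter of a mean FPKM of 5 and has no value there.

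Replicate numbers 2 and 3 occur in both groups but stand for different dams, and the deviations of same-numbered libraries from their group means correlated at 0.04 and -0.02, so the numbers were not taken to pair the dams. With the replicate number as a block, which leaves the contrast to replicates 2 and 3, 1241 genes had an unadjusted p under 0.05 and 0 an adjusted p under 0.05. Of the 10866 genes tested, 685 were higher and 556 lower by the unadjusted p. Among the VLDL genes 2 were higher (*Ces3a* and *Ces1d*) and 2 lower (*Mttp* and *Sar1b*), and the log2 fold change of *Mttp* was -1.31. The log2 ratio differences under the block were -0.71 for *Mttp* to *P4hb*, -1.0 for *Sar1b* to *Sar1a*, -0.44 for *Mia2* to *Mia3* and -0.63 for *Ces1d* to *Ces3a*. The ratio differences kept their sign under every alternative, with ranges of -0.67 to -0.52, -1.16 to -0.74, -0.50 to -0.29 and -1.55 to -0.65 with 1 library left out.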
